A study of Mus musculus with 24 samples.

Results

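Stress genes were compared between myoblasts with a *Brd9* knockdown (KD) and control myoblasts carrying a scrambled shRNA (scr), both cultured with copper (Cu). The comparison used 4 of the 24 libraries of the series, chosen by their titles: 2 of *Brd9* KD and 2 of scr, each after 48 h with 100 µM CuSO4. The same contrast in untreated cells (NT) used another 4 libraries, 2 for each line, so the 2 comparisons shared no library, although both contrast the same pair of lines as labelled. The study describes the cells as C2C12, an established line of mouse myoblasts, in which each shRNA was delivered by lentivirus and the transduced population was kept under puromycin. Both lines therefore carried a vector and its resistance gene. Whether the replicates came from separate transductions is not given in the sources used here. Loss of *Brd9* and any other difference between the 2 lines cannot be told apart in this comparison. The labels call the cells primary myoblasts and describe a lipid transfection, and their treatment field contradicts the titles of these libraries, so every group here follows the title.

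Brd9 is a bromodomain protein of the non-canonical BAF complex, 1 of the SWI/SNF complexes that move nucleosomes with the energy of ATP. Copper is a cofactor of enzymes such as cytochrome oxidase and superoxide dismutase, and in excess it reacts with thiols and generates oxidants. Cells answer with metallothioneins, which bind metals and are induced by the zinc finger factor MTF1, with glutathione and NADPH-producing enzymes under NRF2, and with chaperones, and stalled translation or misfolded protein calls on the integrated stress response through ATF4. To follow these programmes, 13 lists with 381 genes were drawn up, of which 358 passed the filter on low counts with Cu and 353 untreated. Levels are given in CPM, counts scaled to a library total of 1000000, with the same scaling over the 8 libraries, and differences as the log2 fold change of *Brd9* KD over scr ± SE, with Benjamini-Hochberg adjusted p-values from the quasi-likelihood test of edgeR. A gene was called at an adjusted p under 0.05.

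The knockdown was first checked in the RNA. The shRNAs listed by the study for *Brd9* and scr are shown because they define the 2 lines; which of the *Brd9* hairpins was used for these libraries is not given in the sources used here. The capitals mark the 21 bases of the sense strand, and the remainder is the loop, the antisense strand and the cloning ends.
*Brd9* shRNA1: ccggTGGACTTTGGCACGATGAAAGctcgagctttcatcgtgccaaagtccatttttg
*Brd9* shRNA2: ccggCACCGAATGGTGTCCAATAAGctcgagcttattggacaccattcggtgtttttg
scr shRNA: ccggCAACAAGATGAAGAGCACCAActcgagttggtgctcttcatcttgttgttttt
In the GENCODE M21 transcripts (GRCm38), the first target lay at chr13:73940726-73940746 on the plus strand, within a coding exon of *Brd9*, and the second at chr13:73960500-73960520, in exon 16, in the 3′ UTR of the coding transcripts that contain it. The scr sequence matched 0 transcripts exactly. *Brd9* was at 13.8 and 15.1 CPM in the *Brd9* KD libraries with Cu and at 27.7 and 28.7 CPM in scr with Cu. Untreated, it was at 17.5 and 17.3 CPM against 26.6 and 31.7 CPM. The lines did not overlap in either medium, and the log2 fold change was -0.96 ± 0.12 with Cu (adjusted p = 0.00291) and -0.76 ± 0.13 untreated (adjusted p = 0.006). Without the second untreated *Brd9* KD library, the untreated call was lost at a log2 fold change of -0.76.

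Sequencing depth ran from 13994335 to 44746359 counts over the 8 libraries. Transcripts that follow carried-over ribosomal RNA stood apart in 3 of them: the 5 such genes that were measured held 1.11% of the counts in replicate 1 of *Brd9* KD with Cu, 4.75% and 1.69% in untreated scr, and at most 0.182% elsewhere. Composition by base content also differed between libraries, as described with the untreated comparison. Muscle genes differed between the 2 lines as well. The myoblast genes *Myod1* and *Des*, a muscle intermediate filament, were expressed in every library. With Cu, *Des* was at 1152 to 1194 CPM in *Brd9* KD and 1829 to 2181 CPM in scr. The progenitor marker *Pax7* was low, at 0.92 to 3.04 CPM, and was called higher in *Brd9* KD with Cu. Of 10 myoblast genes tested with Cu, 3 were called higher and 4 lower, 70% beside 12.2% of all genes. Summed over 26 genes of differentiating muscle, the level was 768 and 1005 CPM in *Brd9* KD against 2919 and 5412 CPM in scr with Cu, and 10 of the 19 tested were called, each lower, where 5.27% of all genes were called lower. Leukocyte and endothelial markers summed to 5.04 to 11.1 CPM over 10 genes, with *Cdh5* at 0 in all 8 libraries. Fewer cells of a state and less RNA per cell cannot be told apart in such bulk libraries, and the part of the muscle genes in the stress results was not tested.

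With Cu, 92 of the 358 tested stress genes (25.7%) were called, 36 higher and 56 lower in *Brd9* KD. Over all 14958 genes tested, 12.2% were called, 6.94% higher and 5.27% lower. Untreated, 162 of 353 stress genes (45.9%) were called, 45 higher and 117 lower, against 29.2% of all 14277 genes, of which 15.1% were higher and 14.1% lower. The median log2 fold change of the stress genes was -0.08 with Cu and -0.18 untreated, beside -0.01 and 0.01 over all genes. Of all genes, 1827 were called with Cu over the 4 libraries, and the number changed when any 1 of them was left out. It was lower without either *Brd9* KD library and higher without either scr library. Untreated, 4165 genes were called, 1919 and 994 without replicate 1 or 2 of *Brd9* KD. The direction over all genes also depended on the scaling: with an offset for GC content and transcript length, 41.3% of the calls with Cu were higher instead of 56.8%, and 35.7% instead of 51.8% untreated.

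**Figure D1:**
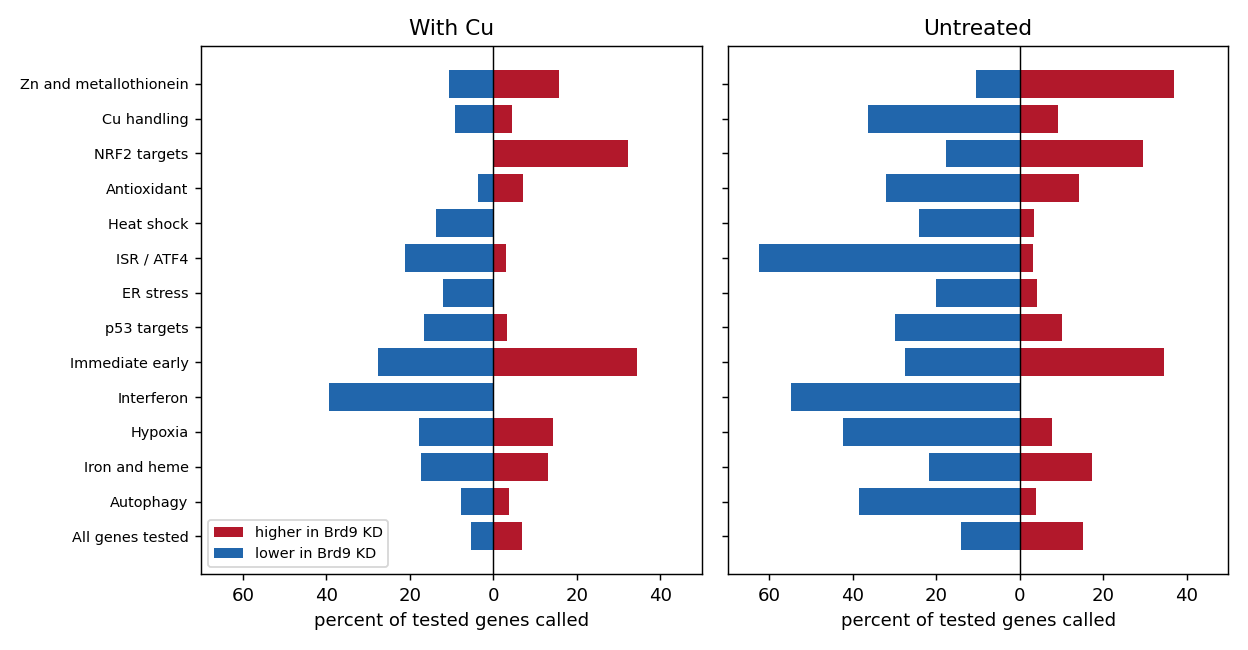
Percent of the tested genes of each stress list, and of all genes tested, that were called higher (red, to the right) or lower (blue, to the left) in *Brd9* KD than in scr, with Cu (left panel) and untreated (right panel). With Cu the NRF2 list held 11 higher and 0 lower calls and the interferon list 0 higher and 13 lower.

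Metallothioneins were higher in *Brd9* KD in both media. *Mt1* reached 219 and 228 CPM in *Brd9* KD with Cu, against 84.9 and 60.5 CPM in scr (log2 fold change 1.63 ± 0.16, adjusted p = 0.00111). *Mt2* was at 93.0 and 91.8 CPM against 28.1 and 24.6 CPM (1.82 ± 0.11, adjusted p = 0.000259). Neither gene overlapped between the lines. Untreated, the differences were nearly as large, 1.42 ± 0.11 for *Mt1* and 1.70 ± 0.12 for *Mt2*, and the *Mt1* level in untreated *Brd9* KD, 164 and 152 CPM, was above that of scr with Cu. In the list of zinc transporters and metallothioneins, 5 of 19 tested genes (26.3%) were called with Cu, beside 12.2% of all genes. Untreated, 9 of the 19 (47.4%) were called, beside 29.2% of all genes. *Slc39a14*, an importer of zinc and iron, was higher (0.53 ± 0.10, adjusted p = 0.0132) and *Slc39a3*, a zinc importer, lower (-0.47 ± 0.12, adjusted p = 0.0397), both with the same sign untreated. *Mtf1* itself was at 48.2 and 45.4 CPM against 50.2 and 48.1 CPM (adjusted p = 0.751), and the zinc exporter *Slc30a1* at 16.5 and 17.6 against 13.9 and 12.6 CPM (0.37 ± 0.13, adjusted p = 0.118). The call for *Slc39a14* was lost without either *Brd9* KD library, at 0.54 and 0.50.

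The promoters of the 2 metallothioneins are shown because their genes changed together and lie next to each other on chromosome 8. Each RefSeq window (GRCm38.p6) runs from 250 bases before to 50 after the start, 5′ to 3′ on the strand of the gene. Capitals mark the core of the metal response element, TGCACNC or TGCGCNC, and the core of the antioxidant response element, TGACNNNGC, on either strand.
*Mt1* (chr8:94178839-94179138, plus strand): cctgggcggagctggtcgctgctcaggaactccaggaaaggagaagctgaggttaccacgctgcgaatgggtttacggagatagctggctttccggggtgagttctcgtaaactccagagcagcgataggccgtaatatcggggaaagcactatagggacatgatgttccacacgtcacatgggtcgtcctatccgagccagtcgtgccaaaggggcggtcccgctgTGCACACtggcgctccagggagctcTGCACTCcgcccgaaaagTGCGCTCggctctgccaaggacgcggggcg
*Mt2* (chr8:94172368-94172667, plus strand): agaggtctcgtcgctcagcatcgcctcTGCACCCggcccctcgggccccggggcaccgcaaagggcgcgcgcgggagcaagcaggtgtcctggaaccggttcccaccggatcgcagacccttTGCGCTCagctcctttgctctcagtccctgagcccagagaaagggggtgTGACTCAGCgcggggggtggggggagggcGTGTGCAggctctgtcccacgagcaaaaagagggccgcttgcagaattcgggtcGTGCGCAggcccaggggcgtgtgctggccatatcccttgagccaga
*Mt1* held 3 matches to the metal element core and *Mt2* held 4, together with 1 match to the antioxidant core. The metal core is short and occurred in 28.2% of the 27018 genes with a window, in 40.8% of those tested with Cu and in 11 of 19 genes of the zinc and metallothionein list.

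Copper handling showed few calls with Cu. Among 22 tested genes, 1 was higher and 2 were lower, a share of 13.6% beside 12.2% of all genes. *Cox17*, which carries Cu to cytochrome oxidase, was at 12.5 and 12.9 CPM in *Brd9* KD and 20.5 and 24.5 CPM in scr with Cu (-0.83 ± 0.14, adjusted p = 0.00939). *Steap2*, a metalloreductase, was at 89.5 and 86.0 against 51.7 and 53.7 CPM (0.74 ± 0.10, adjusted p = 0.00392). With the offset for GC content and length, *Steap2* was not called with Cu (0.64, adjusted p = 0.0505), and its untreated difference of 0.72 became -0.01. *Atp7a*, the ATPase that exports Cu, was at 33.0 and 31.2 CPM against 43.5 and 45.3 CPM (-0.47 ± 0.11, adjusted p = 0.0327). The importer *Slc31a1* was at 73.1 and 75.8 CPM against 78.6 and 63.6 CPM, with overlapping lines (0.07 ± 0.12, adjusted p = 0.776). Untreated, 10 of the 22 genes were called, 45.5% beside 29.2% of all genes, and 8 of the 10 were lower. Among the lower genes was *Ccs*, the Cu chaperone of superoxide dismutase (-0.94 ± 0.16). With Cu, *Ccs* was at 13.9 and 16.4 against 19.7 and 24.5 CPM and was not called. Without either *Brd9* KD library, *Cox17*, *Steap2* and *Atp7a* with Cu were not called, at -0.80 and -0.86, 0.70 and 0.75, and -0.51 and -0.44.

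Called NRF2 targets were higher in *Brd9* KD with Cu. NRF2 is the factor that induces detoxifying and glutathione enzymes when its inhibitor KEAP1 is modified. Of 34 tested targets, 11 (32.4%) were called higher in *Brd9* KD and 0 lower, beside 6.94% and 5.27% of all genes. The median log2 fold change was 0.39 over the list and -0.01 over all genes. At an unadjusted p under 0.05, 18 of the targets were higher and 2 lower by edgeR, and DESeq2 called 13 higher and 0 lower. *Nqo1*, a quinone reductase, was at 71.7 and 72.9 CPM against 20.6 and 19.0 CPM (1.87 ± 0.11, adjusted p = 0.000259). *Mgst1*, a membrane glutathione transferase, was at 5.67 and 6.92 CPM against 0.747 and 0.611 CPM (3.25 ± 0.28, adjusted p = 0.000686). *Gstm2* (1.60 ± 0.23, adjusted p = 0.00499) and *Gstm1* (0.89 ± 0.18, adjusted p = 0.019) are glutathione transferases with near-identical relatives, between which uniquely mapped reads divide unevenly. Both subunits of glutamate-cysteine ligase, the enzyme that starts glutathione synthesis, were higher: *Gclm* was at 71.0 and 67.0 against 34.3 and 38.7 CPM, and *Gclc* at 91.9 and 92.5 against 58.0 and 56.0 CPM. The epoxide hydrolase *Ephx1* (0.93 ± 0.11) and the pentose phosphate enzyme *Tkt* (0.76 ± 0.11) were also called. *Gsta4*, a transferase for lipid aldehydes, was at 522 and 487 against 587 and 457 CPM (adjusted p = 0.882), and *Txnrd1*, thioredoxin reductase, at 650 and 648 against 671 and 684 CPM (adjusted p = 0.795). Untreated, 10 genes of the list were higher and 6 lower, 47.1% called beside 29.2% of all genes. The untreated median was 0.10 over the list and 0.01 over all genes. Without either *Brd9* KD library, *Gstm1* was not called, at 0.90 and 0.86.

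The promoter of *Gclm* is shown with the same 2 motifs in capitals, as an NRF2 gene called in both media whose window holds both.
*Gclm* (chr3:122245307-122245606, plus strand): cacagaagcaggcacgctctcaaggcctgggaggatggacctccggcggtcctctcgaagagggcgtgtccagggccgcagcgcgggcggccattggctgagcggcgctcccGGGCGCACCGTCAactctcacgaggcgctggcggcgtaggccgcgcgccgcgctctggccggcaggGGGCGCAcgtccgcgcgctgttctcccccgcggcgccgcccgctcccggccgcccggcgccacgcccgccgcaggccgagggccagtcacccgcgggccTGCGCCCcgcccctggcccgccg
A match to the metal core on the minus strand runs into the match to the antioxidant core here. The antioxidant core was found in 14 of 31 NRF2 genes with a window (45.2%), in 4 of the 9 called higher with Cu that had one, and in 14% of all 27018 genes.

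Other antioxidant genes were mostly not called with Cu, 3 of 28 tested, 10.7% beside 12.2% of all genes. *Sod3*, the secreted superoxide dismutase, was at 44.8 and 42.5 CPM in *Brd9* KD and 15.01 and 12.9 CPM in scr (1.66 ± 0.13, adjusted p = 0.000451). *Txnip*, which binds and inhibits thioredoxin, was at 32.5 and 31.8 against 71.6 and 59.4 CPM (-1.02 ± 0.13, adjusted p = 0.00272). *Gpx3*, a secreted glutathione peroxidase, was low, at 5.79 and 5.65 against 2.99 and 2.29 CPM (1.14 ± 0.23, adjusted p = 0.0186). These 3 genes were called with the same sign untreated. *Sod1* was at 184 and 191 CPM against 187 and 169 CPM (0.08 ± 0.10, adjusted p = 0.692). Without either *Brd9* KD library, *Gpx3* was not called, at 1.11 and 1.14.

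**Figure D2:**
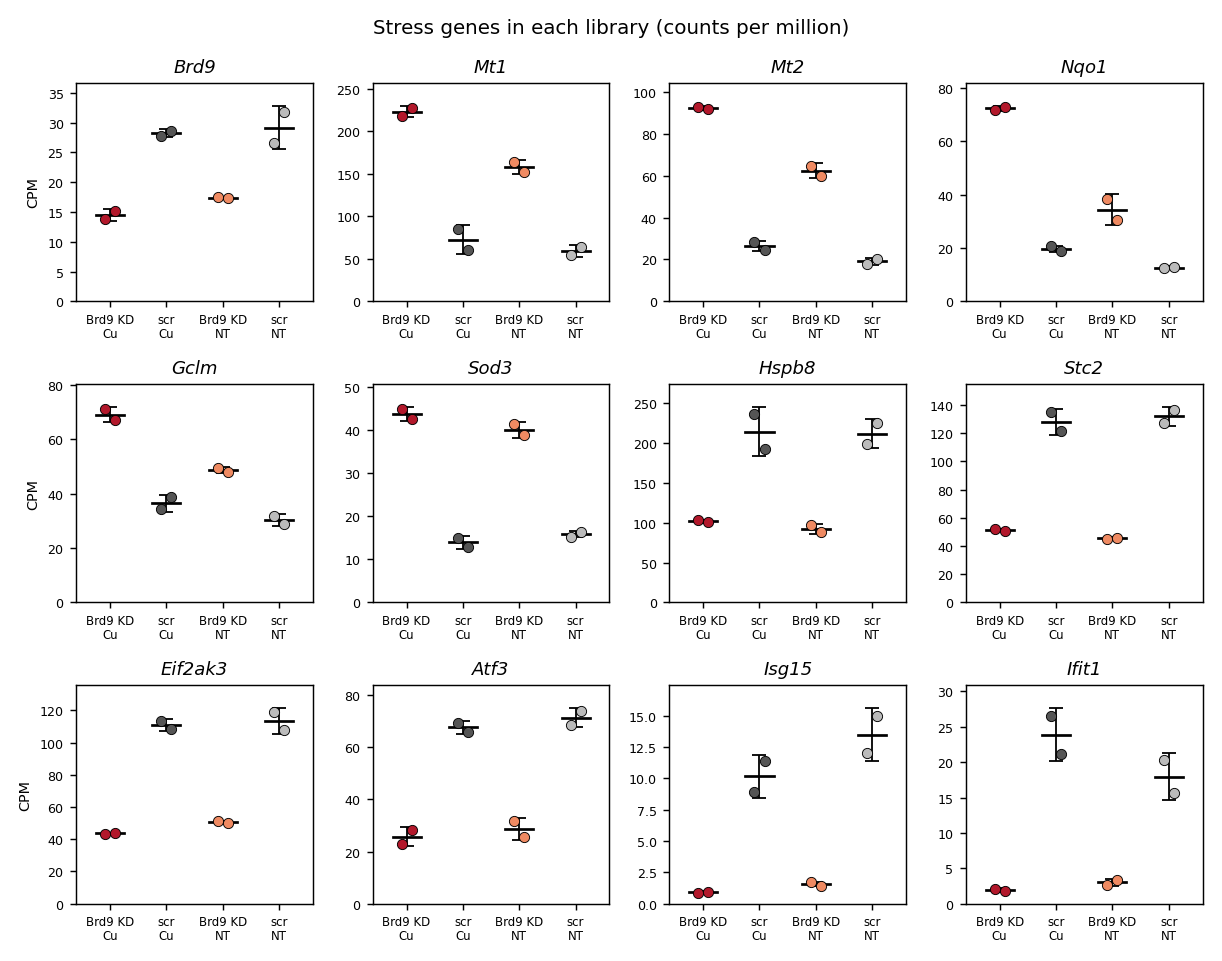
Levels in CPM of *Brd9* and 11 stress genes in each of the 8 libraries: points are libraries, the bar is the mean of 2 and the whisker the SD. For every gene shown, the *Brd9* KD points lie on the same side of the scr points with Cu and untreated.

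Chaperone and ER genes were lower where they were called with Cu. Of 29 heat shock genes, 4 were called with Cu, each lower, and untreated 7 were lower and 1 higher. *Hspb8*, a small heat shock protein that works with BAG3, was at 103 and 100 CPM in *Brd9* KD and 236 and 193 CPM in scr (-1.07 ± 0.12, adjusted p = 0.00191). *Hspb1* was at 203 and 216 against 435 and 323 CPM (-0.85 ± 0.15, adjusted p = 0.0115), and *Dnajb2* at 38.3 and 39.4 against 53.2 and 51.8 CPM (-0.43 ± 0.10, adjusted p = 0.0381). Small heat shock proteins are abundant in muscle, and the muscle genes given above were lower in the same libraries. A link between these falls and the muscle genes was not tested. Of 25 genes of the unfolded protein response, 3 were called, each lower: *Os9* (-0.47 ± 0.12), *Derl1* (-0.41 ± 0.10) and *Edem1* (-0.40 ± 0.10), which act in the degradation of misfolded ER proteins. Untreated, 5 of these 25 genes were lower and 1 higher. The share called with Cu in these lists, 13.8% and 12%, was near the 12.2% of all genes, and untreated it was 27.6% and 24%, beside 29.2%. The calls for *Hspb1*, *Dnajb2*, *Os9*, *Derl1* and *Edem1* were lost without either *Brd9* KD library, at log2 fold changes of -0.91 to -0.81 for *Hspb1* and -0.50 to -0.38 for the other genes.

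Of 33 tested genes of the integrated stress response, 7 were called lower and 1 higher with Cu, and the remaining 25 were not called. Called genes made up 24.2% of the list, beside 12.2% of all genes, and 21 of the 33 differences were negative. Untreated, 20 of 32 were called lower and 1 higher, 65.6% of the list beside 29.2% of all genes. *Eif2ak3*, which encodes the ER kinase PERK, was at 43.3 and 44.0 CPM in *Brd9* KD with Cu and 113 and 108 CPM in scr (-1.34 ± 0.10, adjusted p = 0.000388). *Stc2*, a secreted glycoprotein under ATF4, was at 52 and 50.6 against 135 and 122 CPM (-1.32 ± 0.10, adjusted p = 0.000491). *Ddit4*, an inhibitor of mTORC1, was at 63.7 and 67.8 against 128 and 136 CPM (-1.01 ± 0.10), and *Ddit3*, the factor CHOP, at 40.1 and 45.4 against 71.9 and 85.1 CPM (-0.88 ± 0.13). The gene that went the other way, *Vldlr*, a lipoprotein receptor, was at 3.79 and 3.94 CPM against 0.0575 and 0.218 CPM (4.50 ± 0.45, adjusted p = 0.00113) and was equally separated untreated (3.99 ± 0.38). The median of the list was -0.13 with Cu and -0.46 untreated. The ATF4 element TTGCATCA was found in 6 of 29 promoters of the list (20.7%) and in 1.03% of all genes, and in 0 of the 6 genes called lower with Cu that had a window.

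Of 30 tested p53 targets, 5 were called lower and 1 higher with Cu, 20% beside 12.2% of all genes, and untreated 9 were lower and 3 higher, 40% beside 29.2%. *Eda2r*, a death receptor, was at 38.9 and 37.0 CPM in *Brd9* KD and 94.7 and 99.5 CPM in scr with Cu (-1.35 ± 0.10, adjusted p = 0.000441) and at 46.7 and 49.7 against 82.4 and 78.8 CPM untreated (-0.75 ± 0.10). *Plk2*, a kinase of the centrosome, was at 228 and 236 against 455 and 431 CPM (-0.93 ± 0.10, adjusted p = 0.0017), and was not called without replicate 2 of *Brd9* KD, at -0.97. *Perp*, a desmosome protein, was higher at 2.33 and 2.88 against 0.23 and 0.153 CPM (3.85 ± 0.42, adjusted p = 0.00169).

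Immediate early genes, which encode the first transcription factors made after a stimulus, held the largest share of calls with Cu among the 13 stress lists. Of 29 tested, 10 were higher and 8 lower, 62.1% beside 12.2% of all genes, and the counts untreated were also 10 and 8, beside 29.2%. *Egr1* was at 80.3 and 77.5 CPM against 43.4 and 34.2 CPM (1.03 ± 0.13). The phosphatase of ERK *Dusp5* (1.28 ± 0.15, adjusted p = 0.00202), *Egr3* (1.13 ± 0.25, adjusted p = 0.0273), the AP-1 subunit *Fosl1* (0.94 ± 0.15) and *Klf4* (0.63 ± 0.11, adjusted p = 0.0123) were higher too. *Atf3*, which responds to many stresses, was at 23.1 and 28.3 against 69.5 and 65.7 CPM (-1.39 ± 0.13, adjusted p = 0.000978), and *Ccn2*, a target of YAP and TGF-beta, at 348 and 350 against 818 and 700 CPM (-1.12 ± 0.12). Without either *Brd9* KD library, *Egr3* and *Klf4* were not called, at 1.23 and 0.98 and at 0.63 and 0.62.

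Interferon-stimulated genes were lower wherever they were called by edgeR. Of 33 tested with Cu, 13 (39.4%) were called lower and 0 higher, beside 5.27% of all genes lower, with a list median of -0.66. Untreated, 17 of 31 (54.8%) were called lower and 0 higher, beside 14.1% of all genes lower, with a list median of -0.78. At an unadjusted p under 0.05, edgeR gave 22 lower and 1 higher with Cu and 20 lower and 1 higher untreated, and DESeq2 called 11 lower and 1 higher and 16 lower and 0 higher. *Ifit1*, which binds foreign RNA caps, was at 2.12 and 1.75 CPM in *Brd9* KD with Cu and 26.5 and 21.2 CPM in scr (-3.62 ± 0.19, adjusted p = 0.000253). *Isg15*, a ubiquitin-like modifier, was at 0.833 and 0.959 against 8.91 and 11.4 CPM (-3.50 ± 0.24, adjusted p = 0.000316). *Parp14* was at 0.167 and 0.0685 against 1.72 and 1.75 CPM (-3.88 ± 0.52, adjusted p = 0.0037). *Rsad2*, the antiviral enzyme viperin, had 2 and 1 reads in *Brd9* KD with Cu against 45 and 139 in scr, a pooled ratio of 51.6 after scaling for depth (95% exact binomial interval 17.4 to 253, counting error only). *Mx2* had 1 and 1 against 15 and 25 reads, a ratio of 16.8 (4.37 to 144), and its call was lost without either *Brd9* KD library, at -4.17 and -3.91. *Cxcl10*, a chemokine induced by interferon, was at 0.458 and 0.548 against 7.36 and 4.65 CPM (-3.53 ± 0.35, adjusted p = 0.00113). The list summed to 248 and 251 CPM in *Brd9* KD and 358 and 363 CPM in scr with Cu.

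The promoters of *Ifit1* and *Isg15*, the 2 with the highest scr level among the strongly lower genes, are shown with the core of the interferon-stimulated response element, GAAANNGAA on either strand, in capitals. This motif was chosen after the values were seen.
*Ifit1* (chr19:34640639-34640938, plus strand): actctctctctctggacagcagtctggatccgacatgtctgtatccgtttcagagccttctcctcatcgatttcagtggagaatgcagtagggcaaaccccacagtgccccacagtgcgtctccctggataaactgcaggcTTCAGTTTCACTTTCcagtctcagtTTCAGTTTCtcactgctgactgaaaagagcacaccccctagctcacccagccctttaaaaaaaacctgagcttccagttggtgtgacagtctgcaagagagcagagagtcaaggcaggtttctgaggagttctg
*Isg15* (chr4:156200769-156201068, minus strand): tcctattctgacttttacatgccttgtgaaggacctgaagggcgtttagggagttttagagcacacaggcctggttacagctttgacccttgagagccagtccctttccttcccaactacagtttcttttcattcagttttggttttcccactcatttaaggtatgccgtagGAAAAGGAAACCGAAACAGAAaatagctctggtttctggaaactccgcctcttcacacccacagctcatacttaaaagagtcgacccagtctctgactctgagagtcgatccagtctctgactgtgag
Each window held 3 overlapping or neighbouring matches. The core occurred in 16 of 27 interferon genes with a window (59.3%), in 7 of the 10 called lower with Cu that had one, and in 9.76% of all genes.

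The lists for hypoxia, iron and autophagy each held calls in both directions with Cu, 32.1%, 30.4% and 11.5% of their tested genes beside 12.2% of all genes. Of 28 hypoxia genes, 4 were higher and 5 lower with Cu. *Ndrg1* was at 305 and 318 CPM against 652 and 503 CPM (-0.89 ± 0.14, adjusted p = 0.00805), while *Adm*, adrenomedullin, had 17 and 21 reads against 1 and 1, a ratio of 22.6 (95% exact binomial interval 5.83 to 193). Of 23 iron and heme genes, 3 were higher and 4 lower. *Slc40a1*, ferroportin, the exporter of iron, was at 6.88 and 7.61 against 21.5 and 21.5 CPM (-1.56 ± 0.14, adjusted p = 0.000722). *Slc25a37*, a mitochondrial iron importer, was at 181 and 178 against 117 and 119 CPM (0.60 ± 0.09, adjusted p = 0.00655), and *Cpox* of heme synthesis at 64.5 and 65.6 against 106 and 99.8 CPM (-0.66 ± 0.10, adjusted p = 0.00576). Of 26 autophagy genes, 1 was higher and 2 lower, and *Map1lc3a*, a protein of the autophagosome membrane, was at 36.5 and 42.6 against 86.2 and 72.3 CPM (-0.998 ± 0.13, adjusted p = 0.0038). *Nbr1*, a receptor of selective autophagy, was lower (-0.60 ± 0.09) and *Wipi1*, which binds early autophagosomes, higher (0.59 ± 0.11). Without either *Brd9* KD library, *Ndrg1*, *Adm*, *Slc25a37*, *Cpox*, *Nbr1* and *Wipi1* were not called, at -0.86 and -0.93, 4.30 and 4.26, 0.59 and 0.60, -0.65 and -0.69, -0.62 and -0.60, and 0.62 and 0.55.

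The question of the design was which stress genes differed with Cu and not untreated, and the reverse. Of the 353 stress genes tested in both media, 81 were called in both, and all 81 had the same sign. Another 9 (2.55%) were called with Cu and not untreated, and 81 (22.9%) were called untreated and not with Cu. Over all 14127 genes tested in both, these shares were 9.97% in both, 2.69% with Cu alone and 19.3% untreated alone. All 1409 genes called in both likewise had the same sign, so this was not particular to the stress genes. A call in one medium alone does not show that the difference depended on Cu, so the difference between the 2 comparisons was tested as an interaction over the 8 libraries. By edgeR, 0 of 15181 genes (0%) had a called interaction (smallest adjusted p = 0.437), with 1718 at an unadjusted p under 0.05, among them 57 of 358 stress genes. DESeq2 called 12 genes, 1 of them a stress gene, *Ifih1*. The 12 included the ribosomal carry-over genes *CT010467.1*, *Gm15564*, *Gm24187* and *Lars2*. Without a filter on low counts, edgeR called 923 of 29401 genes, 93 of them with a positive interaction, and 26 of the 923 were stress genes. Across the 353 genes, the log2 fold changes of the 2 media had a Pearson r of 0.87, and 76.5% had the same sign, beside 0.69 and 70.2% over all 14127 genes. Genes are not independent replicates, so these are given as a description.

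**Figure D3:**
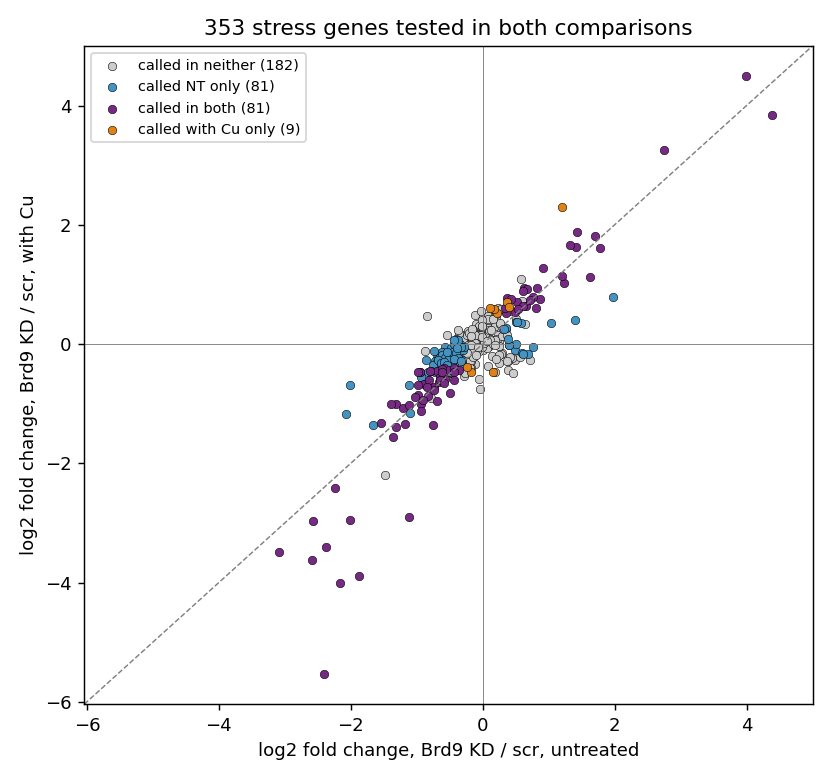
Log2 fold change of *Brd9* KD over scr for the 353 stress genes tested in both media, untreated on the x axis and with Cu on the y axis; each point is a gene, coloured by where it was called, and the dashed line marks equal values. The 81 genes called in both lie in the lower left and upper right quadrants, and the 9 called with Cu alone lie between -0.24 and 1.21 on the x axis.

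The 9 genes called with Cu alone are named in full, after their values were seen. Of these, 6 were higher and 3 lower in *Brd9* KD with Cu. The sign was the same untreated for 8 of the 9, beside 91.6% of all 380 genes called with Cu alone. *Pgd*, an enzyme of the pentose phosphate pathway that makes NADPH, was at 368 and 361 CPM in *Brd9* KD and 259 and 222 CPM in scr with Cu (0.60 ± 0.11), and at 214 and 216 against 187 and 207 CPM untreated (0.12 ± 0.09). *Atp7a* was the gene whose sign changed: untreated it was at 42.2 and 43.5 CPM in *Brd9* KD and 43.0 and 33.6 CPM in scr, with overlapping lines (0.15 ± 0.14, adjusted p = 0.428). The interaction had an unadjusted p of 0.00818 for *Pgd* and 0.00499 for *Atp7a*, and an adjusted p of 0.437 for both. *Abcc1*, an exporter of glutathione conjugates, was at 261 and 286 against 195 and 188 CPM with Cu (0.52 ± 0.10) and differed by 0.22 ± 0.10 untreated. *Ftl1*, the ferritin light chain, was at 1857 and 1976 against 1369 and 1191 CPM (0.58 ± 0.15) and differed by 0.17 ± 0.11 untreated; it has near-identical copies in the genome, so its level is uncertain.

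*Mdm2*, the ligase that degrades p53, was at 138 and 125 against 180 and 187 CPM with Cu (-0.48 ± 0.10) and differed by -0.17 ± 0.12 untreated. *Slc30a9* was at 60.0 and 60.9 against 77.4 and 80.3 CPM (-0.38 ± 0.10) and -0.24 ± 0.10 untreated. *Nr4a1*, an immediate early receptor, differed by 0.63 ± 0.15 with Cu and 0.40 ± 0.21 untreated. *Egln3*, a prolyl hydroxylase of the hypoxia pathway, was at 40.6 and 44.1 against 29.2 and 23.0 CPM (0.71 ± 0.14) and 0.37 ± 0.13 untreated, and *Car9*, a carbonic anhydrase, was below 2 CPM throughout (2.31 ± 0.47 and 1.21 ± 0.40). For these 5 genes and for *Abcc1* and *Ftl1* the interaction had an unadjusted p of 0.05 or more. Without replicate 1 or 2 of *Brd9* KD with Cu, 0 of the 9 genes were called with Cu alone, in either case. Without replicate 1 or 2 of scr with Cu, 73 and 33 stress genes fell in this class, all 9 among them, and without replicate 1 or 2 of untreated *Brd9* KD, 27 and 39 did.

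**Figure D4:**
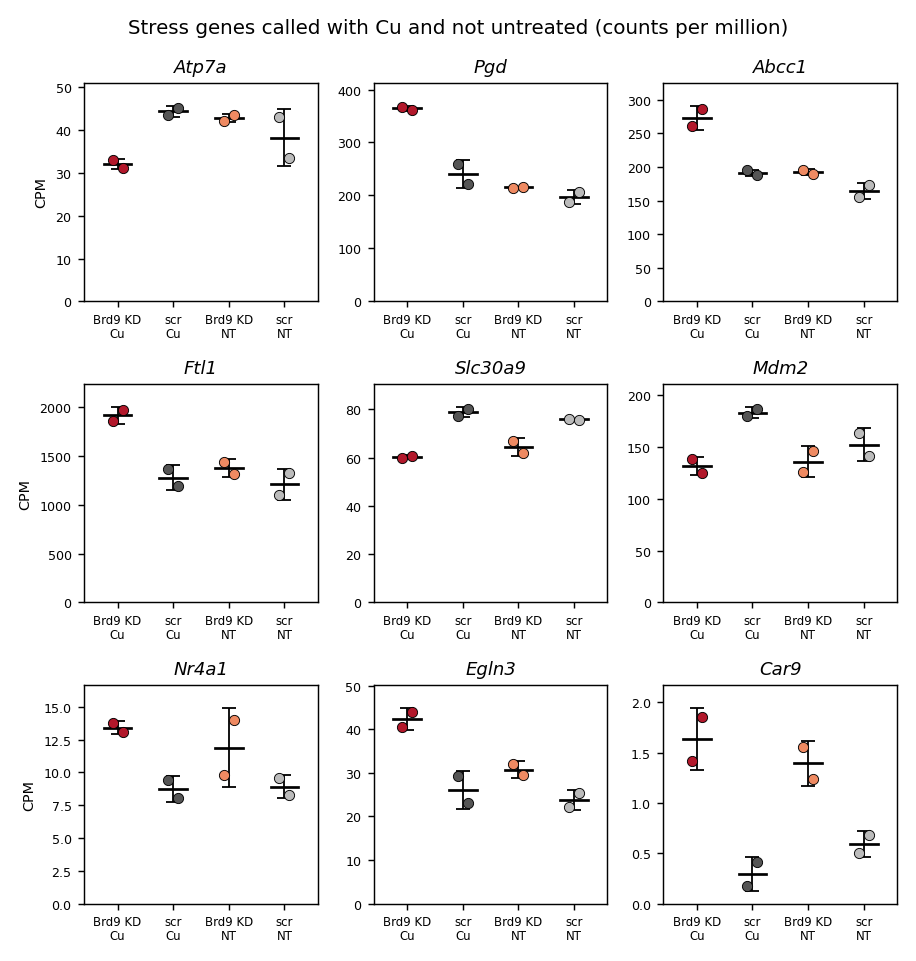
Levels in CPM of the 9 stress genes called with Cu and not untreated, in each of the 8 libraries: points are libraries, the bar is the mean of 2 and the whisker the SD. With Cu no gene overlaps between *Brd9* KD and scr, and untreated 6 of the 9 do not overlap either.

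That the 9 genes did not overlap with Cu is what their call implies: 55.5% of all genes tested with Cu and 68.9% of those untreated did not overlap between the lines.

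The 81 stress genes called untreated and not with Cu were mostly lower in *Brd9* KD, 65 lower and 16 higher. With Cu, 70 of the 81 had the same sign, beside 82.8% of all 2724 genes called untreated alone. The median absolute log2 fold change of the 81 was 0.55 untreated and 0.25 with Cu, and the difference was smaller with Cu in 78. That order largely follows from how these genes were chosen, by a call untreated and none with Cu. In the 9 genes called with Cu alone it was the reverse, 0.22 untreated and 0.58 with Cu. By edgeR, 25 of the 81 had an interaction at an unadjusted p under 0.05, and 0 had a called one. Over all genes the share at this p was 11.3%, but the 81 were chosen for unlike calls, so the shares are not comparable. In the integrated stress response list, 13 of the 32 genes tested in both were called untreated alone, beside 19.3% of all genes. *Mthfd2*, a mitochondrial folate enzyme under ATF4, was at 143 and 139 CPM in *Brd9* KD and 208 and 223 CPM in scr untreated (-0.62 ± 0.09), and at 165 and 172 against 192 and 189 CPM with Cu (-0.18 ± 0.09), with an unadjusted interaction p of 0.00559. *Trib3*, a pseudokinase that restrains ATF4, differed by -0.86 ± 0.18 untreated and -0.28 ± 0.12 with Cu. Among the NRF2 targets, *Srxn1*, sulfiredoxin, was at 140 and 131 against 176 and 189 CPM untreated (-0.44 ± 0.09). With Cu, *Srxn1* was at 256 and 257 against 255 and 235 CPM (0.07 ± 0.10), with an unadjusted interaction p of 0.00338. *Txnrd1* of the same list (-0.40 ± 0.09 and -0.06 ± 0.11) and *Sod1* of the antioxidant list (-0.41 ± 0.11 and 0.08 ± 0.10) had the same order. *Slc30a4*, a zinc transporter, was higher untreated, at 300 and 324 against 226 and 157 CPM (0.69 ± 0.16), and overlapped with Cu, at 277 and 207 against 253 and 289 CPM (-0.17 ± 0.15). *Cp*, ceruloplasmin, the Cu-binding ferroxidase, was at 44.5 and 44.4 against 23.3 and 19.9 CPM untreated (1.03 ± 0.13) and 43.6 and 36.9 against 29.3 and 33.6 CPM with Cu (0.35 ± 0.13). Without replicate 1 or 2 of untreated *Brd9* KD, this class held 29 and 6 stress genes, without replicate 1 or 2 of untreated scr 128 and 49, and without replicate 1 or 2 of *Brd9* KD with Cu 127 and 128.

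The untreated differences followed the GC content of the genes. Over 11762 protein-coding genes, Spearman's rho between a gene's GC content and its difference was -0.40 untreated, beside 0.07 with Cu over 12033 genes and 0.56 for the interaction over 12103 genes. With the genes in 10 bins, the bin of lowest GC content (median 39.7%) had a median log2 fold change of 0.54 untreated and -0.09 with Cu, and in the bin of highest (59.7%) it was -0.20 and 0.00. The 65 stress genes lower untreated alone had a median GC content of 52.99%, the 16 higher 42.5%, the 9 called with Cu alone 51.2% and all 353 stress genes 50.1%. After an offset for GC content and length, 10 stress genes were called with Cu alone, 4 of them among the 9 (*Abcc1*, *Atp7a*, *Mdm2* and *Pgd*), and 78 untreated alone, 47 of them among the 81. By edgeR, 33 stress genes then had an interaction at an unadjusted p under 0.05, and 0 had a called one. Over all 15181 genes, 913 were at this p with the offset and 1718 without it. Without the offset, 57 stress genes were at this p. The untreated lines also differed in carried-over ribosomal transcripts, which were high in both scr libraries: the noncoding *CT010467.1* was at 47146 and 16893 CPM in untreated scr and 1125 and 1225 CPM in untreated *Brd9* KD, and with Cu at 10695 CPM in replicate 1 of *Brd9* KD and 1431 to 1745 CPM in the other 3 libraries. The part of base content and of ribosomal carry-over in the list of genes called in one medium alone was not tested beyond these values.

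**Figure D5:**
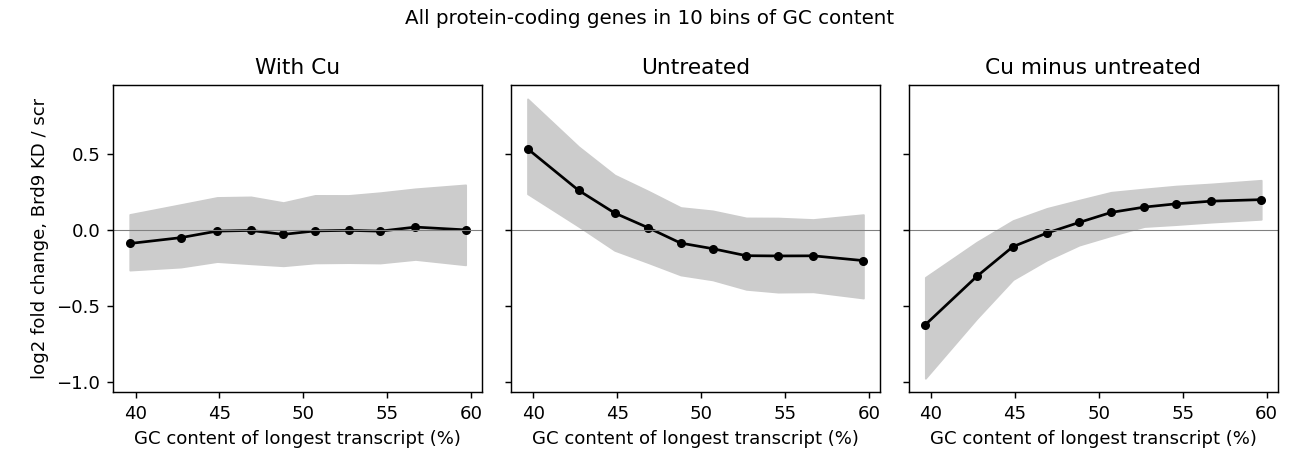
Median log2 fold change of *Brd9* KD over scr (points) and its interquartile range (grey) for protein-coding genes in 10 bins of equal size by GC content of the longest transcript, with Cu, untreated and for their difference. The untreated medians fall from 0.54 in the lowest bin to -0.20 in the highest, while those with Cu stay between -0.09 and 0.02.

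*Ifih1* had the lowest interaction p-value among the stress genes. This gene, which encodes the RNA sensor MDA5, was at 1.17 and 1.44 CPM in *Brd9* KD and 9.03 and 10.6 CPM in scr with Cu (-2.90 ± 0.22), and at 4.19 and 3.36 against 9.55 and 6.96 CPM untreated (-1.12 ± 0.24). The interaction was -1.79 ± 0.33, with an unadjusted p of 0.00029 and an adjusted p of 0.437 by edgeR. It passed the threshold by DESeq2, at -1.78, and by edgeR fitted over all 24 libraries, at -1.76. *Eda2r*, next in order, had an interaction of -0.61 (unadjusted p = 0.00112) and *Ifit1* of -1.05 (unadjusted p = 0.0061). Scr libraries overlapped between the media for *Ifih1*, and the *Brd9* KD libraries with Cu lay below the untreated ones. In the interferon list, 7 of 33 genes had an unadjusted interaction p under 0.05 by edgeR. The integrated stress response list held 10 of 33 and the p53 list 7 of 30, beside 11.3% of all genes. Each of the other stress lists held 2 to 5 such genes. These counts were made without the offset for GC content and length.

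SWI/SNF subunits other than *Brd9* were mostly not called with Cu. Of 27 subunits tested, 2 were higher and 1 lower, 11.1% beside 12.2% of all genes, *Brd9* being the lower one. *Smarca2*, the BRM ATPase, was at 15.2 and 15.6 CPM in *Brd9* KD and 4.20 and 4.67 CPM in scr with Cu (1.79 ± 0.15, adjusted p = 0.000708), with 2.01 ± 0.23 untreated. *Smarcd1* was at 81.6 and 79.5 against 58.3 and 48.8 CPM (0.59 ± 0.12, adjusted p = 0.0181), and was not called without either *Brd9* KD library, at 0.57 and 0.60. *Smarca4*, the BRG1 ATPase, was at 417 and 431 against 391 and 334 CPM (0.23 ± 0.12, adjusted p = 0.267), and the untargeted paralog *Brd7* at 60.3 and 58.9 against 66.5 and 66.9 CPM (-0.16 ± 0.10, adjusted p = 0.357).

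Over all genes, the 8 largest rises and the 8 largest falls with Cu were taken among called genes that averaged 50 normalized counts or more and did not overlap between the lines. Among the rises, *Col6a2* and *Col6a1*, chains of collagen VI, were at 28.3 and 34.7 against 0.575 and 0.262 CPM and at 45.0 and 54.5 against 2.24 and 2.01 CPM (6.45 ± 0.29 and 4.57 ± 0.17). *Ptprf*, a receptor phosphatase, was at 77.0 and 78.7 against 1.84 and 1.22 CPM (5.75 ± 0.19, adjusted p = 8.04e-05). *Gas7*, *Igfbp3*, *Pde3a* and *Nkd2* were called with at most 7.88 CPM in any library. The largest falls included *Mmp12*, the macrophage elastase, at 2.54 and 2.06 against 55.7 and 43.2 CPM (-4.43 ± 0.19, adjusted p = 0.000176), the kinase *Stk32b* (-5.68 ± 0.41), *Alpk3* (-3.26 ± 0.23), *Selp* (-3.12 ± 0.20) and *Themis* (-2.98 ± 0.40), beside *Ifit1*, *Isg15* and *Cxcl10*. All 16 were called untreated with the same sign. Among genes the study itself discusses, a choice it made on these samples, *Islr* (1.93 ± 0.13), which marks mesenchymal cells, and *Hmga2* (1.38 ± 0.13), a chromatin protein of progenitors, were higher with Cu, and *Synpo2l* (-1.19 ± 0.12) and *Postn*, periostin (-2.03 ± 0.18), were lower. *Postn* was at 36.0 and 28.6 against 110 and 153 CPM with Cu and at 67.1 and 75.9 against 133 and 94.9 CPM untreated (-0.68 ± 0.16), with an unadjusted interaction p of 0.000627. *Wnt4* was at 6.08 and 7.13 against 10.4 and 9.98 CPM with Cu (-0.62 ± 0.16, adjusted p = 0.0508) and at 3.72 and 4.05 against 10.7 and 14.3 CPM untreated (-1.70 ± 0.21, adjusted p = 0.00113).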

How the data were processed

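RNA was sequenced from 24 libraries in 12 conditions of 2 replicates each, which the study calls independent biological replicates. Per the study's methods, ribosomal RNA was removed with RNase H, directional libraries were made, reads were aligned to mm10 with STAR, uniquely mapped reads were kept and strand-specific pairs were counted per gene with featureCounts. The submitters' processing notes also name deepTools and DESeq2; versions and the annotation release are not given in the sources used here. The deposited values were raw counts for 55291 gene symbols, with no normalization. The other deposited tables hold the authors' own DESeq2 comparisons and were not used.

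From the counts, genes were filtered with filterByExpr, scaled by TMM and tested with the quasi-likelihood test of edgeR 4.0.16 (R 4.3.3): *Brd9* KD against scr on 4 libraries for each medium, and the difference of these 2 contrasts (interaction) on 8. Adjusted p-values cover all genes tested. The SE was taken from the fold change and its F statistic. The common biological coefficient of variation was 0.128 with Cu and 0.107 untreated. With 2 libraries a group, p-values measure the spread between these libraries only. Alternatives were DESeq2 1.42.0, RLE scaling, other filters, fits over 8 or 24 libraries, a replicate block, a GC and length offset, thinned counts, a fold minimum of 1.5 and each library left out in turn. GC content and length came from GENCODE M21, matched by symbol for 53292 genes. Fits were tested on simulated counts.

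Members, lists and tests were chosen with earlier results of these data known. Genes named were SWI/SNF subunits, genes the study discusses, up to 3 members of each stress list with the largest called difference with Cu, and the 8 largest rises and falls among called genes that averaged 50 normalized counts or more and were separated in every library. Other genes were named after their values were seen. Of the 381 stress genes, 308 had a promoter window. The context lists were myoblast, muscle differentiation, fibroblast and adipogenic, leukocyte and endothelial, G2/M, S phase and ribosomal carry-over genes.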

Additional observations from a re-analysis of the deposited data

How the results depend on the processing

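With 2 libraries a group, the number of DEGs changed when any 1 library was left out. Leaving out 1 library at a time gave 510 to 4862 DEGs with Cu, 994 to 5728 untreated, 0 to 7 called interactions, 0 to 73 stress genes called with Cu alone and 6 to 128 called untreated alone, while called interactions among stress genes stayed at 0. With 1 library left in a group, that library was assumed to vary like the others. In the fits of 1 medium, the spread then came from the pair left in the other group. The median absolute log2 difference between replicates was 0.12 in *Brd9* KD with Cu and 0.22 in scr with Cu. The 1827 DEGs with Cu became 2907 without a filter on low counts and 3332 over 24 libraries, and the 4165 untreated became 2502 with a fold change of at least 1.5. Called interactions, 0 in the main test, were 12 by DESeq2, 923 without a filter and 6 over 24 libraries, and among stress genes 1, 26 and 1. The 6 included the ribosomal carry-over genes *CT010467.1*, *Gm15564*, *Mir6236* and *Lars2*. Stress genes called with Cu alone, 9 in the main test, were 20 by DESeq2, 33 without a filter, 23 over 8 libraries, 25 over 24 libraries and 19 with the GC and length offset and a replicate block. Those called untreated alone, 81 in the main test, were 52 with that offset and block and 43 with the fold minimum. The cause of these changes was not tested. Whether same-numbered libraries were handled together is not given in the sources used here. Their deviations from the group means correlated at 0.03 with Cu and -0.19 untreated. A replicate block gave 1696 and 3566 DEGs and 0 called interactions. Crossing the numbers untreated, which was chosen after seeing the data, gave 7415 DEGs, 159 stress genes called untreated alone and 2 with Cu alone. Of the genes named by rule, *Smarce1* untreated turned to -0.35 and was called with the GC and length offset, and *Steap2* untreated turned to -0.01 with the offset, both without and with the block (-0.0056 and -0.0092). For differences that were uncalled in both settings, a change of sign was not counted as a reversal. Thinning each fit to its smallest library total left 1487 DEGs with Cu and 3615 untreated.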

Other observations

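Cell cycle genes, which were not among the stress lists, were higher in *Brd9* KD where they were called with Cu. Of 30 genes of the G2 and M phases, 7 were called with Cu, each higher, with a median log2 fold change of 0.37, and of 30 S phase genes 5 were called, each higher, with a median of 0.27. The shares were 23.3% and 16.7%, beside 12.2% of all genes tested. Examples are *Kif23*, a kinesin of cytokinesis (0.74), *Ccnb1*, cyclin B1 (0.53), *Cdt1*, a replication licensing factor (0.44), and *Mcm5*, a subunit of the replicative helicase (0.41). Untreated, 10 of the G2 and M genes were called, each higher, and of the S phase genes 4 were higher and 1 lower. The untreated shares were 33.3% and 16.7%, beside 29.2% of all genes.

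Markers of mesenchymal and adipogenic cells were called higher in 4 of 7 tested genes (57.1%) in both media. Of all genes, 6.94% were called higher with Cu and 15.1% untreated. With Cu the 4 markers were *Cebpa* (2.19), *Ly6a*, which encodes Sca-1 (1.83), *Cd34* (1.81) and *Pdgfra* (1.07). The 15 genes of this list summed to 221 and 222 CPM in *Brd9* KD and 195 and 158 CPM in scr with Cu. Of 12 myoblast genes, 10 were tested with Cu, and 3 were higher, *Chrd*, *Vcam1* and *Pax7*, and 4 lower, *Cdh15*, *Des*, *Myf5* and *Itga7*. Of 10 leukocyte and endothelial genes, 3 were tested, and *Kdr* was lower in both media, at -2.08 with Cu and -2.58 untreated. The 5 ribosomal carry-over genes tested gave no call with Cu by edgeR, with 4 at an unadjusted p under 0.05, and 5 lower calls untreated. For these, all 5 had an unadjusted interaction p under 0.05.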
